A study of Mus musculus with 4 samples.

Results

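Crabp1, Crabp2 and Cyp26a1, genes for the binding and breakdown of retinoic acid, were followed across the cell clusters of a mouse embryonic stem cell differentiation. The members were taken by symbol: every entry for these 3 genes in the authors' deposited table of cluster marker genes was kept. That gave 18 of the 2212 entries, and 3 of the 1197 genes, in that table. Crabp1 had 11 entries, Crabp2 had 4 and Cyp26a1 had 3.

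The stem cells carried BRG1 3XFLAG, a tagged form of the chromatin remodeller ATPase BRG1, and were driven towards heart by a directed cardiac differentiation. The groups were profiled by 10x Genomics droplet sequencing: WT MES and Brm KO MES, which are stem cell derived mesoderm, and WT CM and BRM KO CM, labelled as cardiac progenitors of cardiac myocyte source. The knockout lines lacked BRM, the alternative ATPase encoded by Smarca2, and all groups shared the BRG1 tag. Each of the 4 groups was 1 library, and the labels do not say whether a line was 1 clone.

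The authors' deposited table sets each of 15 numbered clusters against all other cells and names no library. The name it was deposited under mentions the Brm knockout alone, so which of the groups its cells come from is not known. Genotypes and stages could therefore not be compared, values have no replicate spread, and no test was run. Smarca2 had 0 entries, which does not check the genotype. The clusters rest on the expression of these same genes, so an entry describes a cluster and is not an independent finding.

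Retinoic acid is the active form of vitamin A. It enters the nucleus and switches genes through the receptors RAR and RXR, and in embryos it helps to set the axis from head to tail and the rear, atrial side of the heart. CRABP1 and CRABP2 are small carrier proteins that hold it inside the cell: CRABP2 can hand it to nuclear receptors, while CRABP1 stays largely in the cytosol and has been linked to its turnover. CYP26A1 is a cytochrome P450 enzyme that oxidises and so clears retinoic acid, and its gene is itself a classic target of the receptors.

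That link can be read in the sequence near the Cyp26a1 start site. The 29 bases of GRCm38.p6 chr19:37697770-37697798, read on the strand opposite to the gene and taken from RefSeq's promoter table, are shown because they hold the layout that RAR and RXR are known to bind. The capitals mark 2 copies of a hexamer, 5 bases apart.
Cyp26a1: caaattAGTTCAcccaaAGTTCAtcttta
The repeat ends 16 bases before the start site used in that table, and no exon of GENCODE M21 overlaps it. The authors used mm9, so these coordinates do not belong to their files.

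Both strands of every promoter, from 250 bases before to 50 after the start site, were searched for the hexamers AGGTCA and AGTTCA and for their 4 direct repeats with any 5 bases between. The repeat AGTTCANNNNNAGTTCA stood in 8 of 32851 promoters (0.0244%), and any of the 4 repeats in 13. AGGTCA was found in 16.3% of promoters and AGTTCA in 14%. Cyp26a1 held AGTTCA at 2 places, both inside the repeat, and Crabp1 held neither hexamer in its window. A promoter entry was matched for 2 of the 3 genes.

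Crabp1 was high in 2 clusters, low in 9 and not listed in 4. Clusters 0 and 7 were its high clusters, and it was the leading gene of both. Of the 14 nascent mesoderm markers, 8 had an entry in any cluster. Cluster 0 was called nascent-mesoderm-like because 4 of these were higher there (Cer1, Fst, Ifitm1 and Tcf15). Cluster 7 was called so on 6 (Aplnr, Cer1, Dll3, Ifitm1, Lhx1 and Tcf15). Mesp1, Mixl1, Eomes, Tbx6, Msgn1 and Evx1 had no entry in any cluster, and T was listed for cluster 3 alone. Both names therefore rest on part of the list. In the authors' deposited table, 79.9% of cluster 0 cells and 19.2% of all others had Crabp1 detected, and its mean was 4.44-fold higher inside. Means behind the deposited folds, here and below, include any constant added before the log, so a fold may be understated. For cluster 7, the authors' deposited table gave 81.2% inside, 24.7% outside and a 3.06-fold difference. Cluster 0 listed 3.09% of the table's genes as higher and cluster 7 listed 3.34%.

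**Figure D1:**
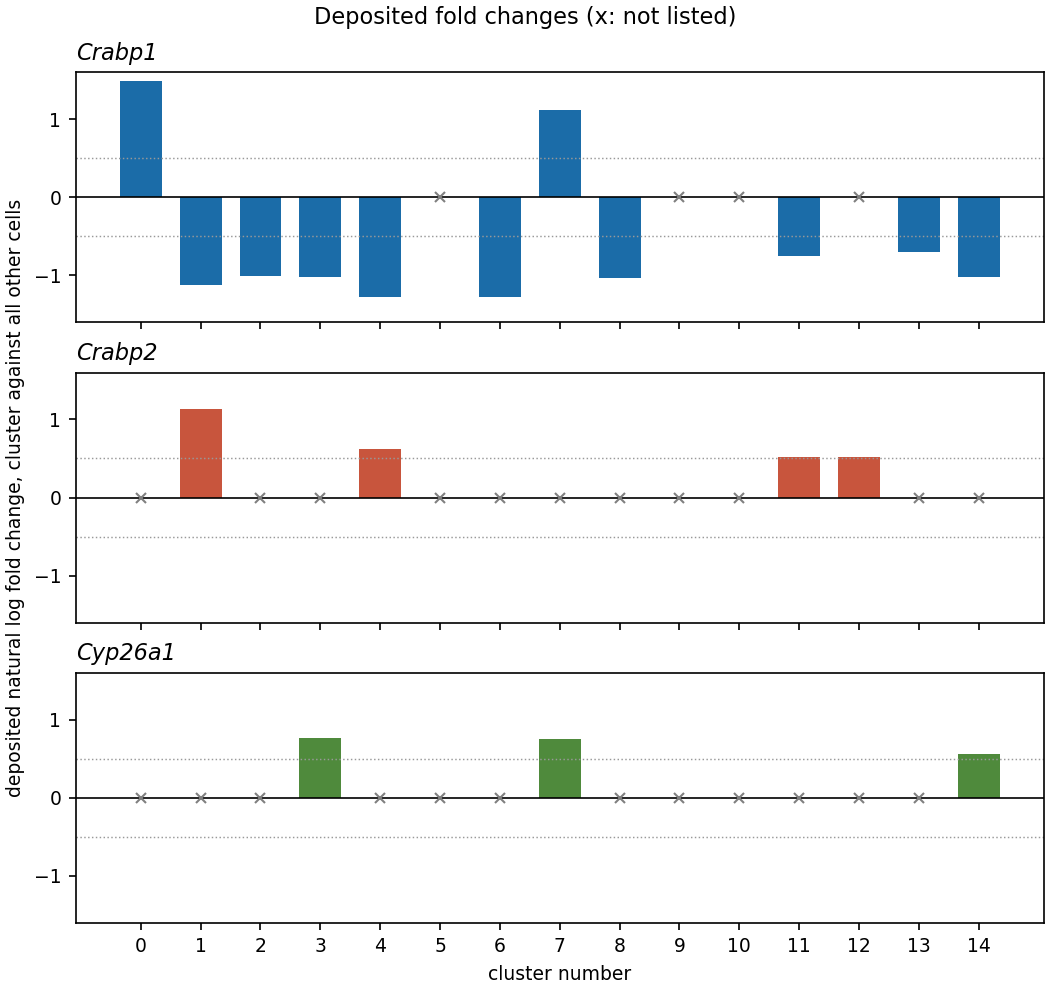
Natural log fold change of Crabp1, Crabp2 and Cyp26a1 (vertical axes) in each of the 15 clusters (horizontal axis) against all other cells, from the authors' deposited table; bars are entries, crosses are clusters without an entry, and dotted lines mark 0.5, the smallest size listed. Crabp1 stands above 0 in clusters 0 and 7 and below 0 in 9 others, while Crabp2 and Cyp26a1 have bars above 0 alone.

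Relative cluster sizes, solved from the deposited detection shares, put these values on a common footing. Cluster 0 held 15.5% of all cells and cluster 7 held 6.95%. Crabp1 was detected in 28.6% of all cells, a share that came out between 28.58% and 28.67% from its 11 entries. Clusters 0 and 7, 22.5% of cells together, held 63.1% of the cells with Crabp1 detected. The level, a cluster's mean expression with any constant added before the log, was for Crabp1 2.89 times the mean of all cells in cluster 0 and 2.68 times in cluster 7, a ratio of 1.08 between them. The lowest levels were those of cluster 6 at 0.295 times the mean and cluster 4 at 0.297.

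The 9 clusters that listed Crabp1 lower ranged widely in kind. In the authors' deposited table, the deepest difference was in cluster 4, where 4.4% of cells had Crabp1 detected against 30.9% outside and the mean was 3.59-fold lower. Cluster 6 was next in the authors' deposited table, with 4.7% against 30.6% and a 3.58-fold lower mean. For cluster 1 the authors' deposited table gave 10.2% against 31.4% and a 3.06-fold lower mean. Of the 12 neural progenitor markers, 7 had an entry in any cluster. Clusters 1 and 4 were called neural-progenitor-like on 4 and 5 of these that were higher. They were Rax, Lhx2, Fezf2 and Sox2 in cluster 1, and Otx2, Lhx5, Dbx1, Fezf2 and Sox2 in cluster 4. Cluster 6 carried 1 such marker, Sox2, and was left unnamed.

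Cluster 2, cardiomyocyte-like with 10 of 10 contractile and cardiac markers higher, had by the authors' deposited table Crabp1 in 11.4% of its cells against 31.1% outside and a 2.75-fold lower mean. Cluster 8 was called pluripotent-like on 5 of the 6 pluripotency markers with an entry, out of 10 on the list, beside 4 of 7 epithelial ones. It had Crabp1 in 12.4% of cells against 29.7% by the authors' deposited table, with a 2.81-fold lower mean. Cluster 3 had 11.3% against 30.6% by the authors' deposited table, with a 2.77-fold lower mean. It was left unnamed, since all 7 epithelial markers and 4 mesoderm markers were higher there.

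The 3 small clusters 11, 13 and 14 also listed it lower. In the authors' deposited table, cluster 13 had Crabp1 in 7.8% of cells and a mean 2.02-fold lower, while cluster 14 had it in 11% and a mean 2.77-fold lower. Cluster 13 had all 10 cardiac markers higher but was left unnamed, as all 8 mitochondrial RNA markers were higher too. In cluster 14, 3 of 8 mitochondrial RNA markers were higher, and in cluster 2, 4 of 8, and their part in the Crabp1 values was not tested. Cluster 11 was unlike the others: its cells had Crabp1 detected almost as often as all others, 27.3% against 28.7%, yet by the authors' deposited table its mean was 2.11-fold lower. The entries of clusters 11 and 14 did not pass an adjusted p of 0.05 in the authors' deposited table, where cells stand as replicates. The shares of the table's genes listed lower were 2.59% for cluster 1, 25.7% for cluster 2, 3.01% for cluster 3, 2.42% for cluster 4, 2.17% for cluster 6, 4.26% for cluster 8, 1.59% for cluster 11, 2.01% for cluster 13 and 9.19% for cluster 14.

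**Figure D2:**
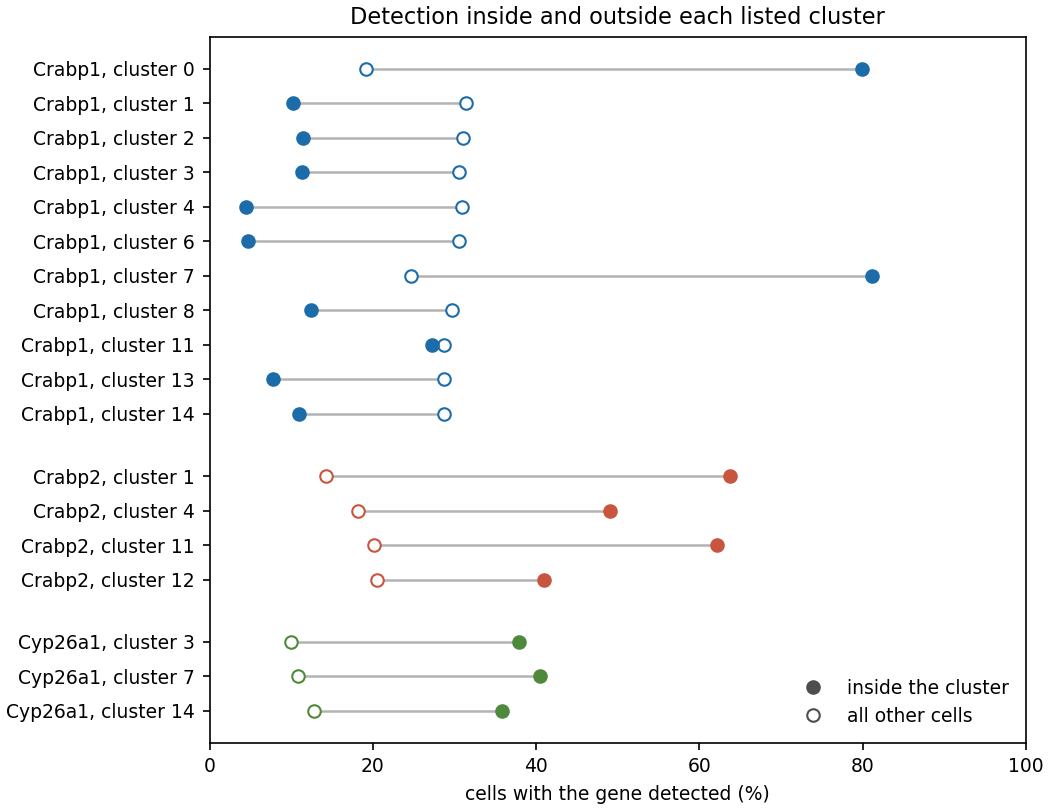
Share of cells with each gene detected (horizontal axis, percent) inside a cluster (filled points) and in all other cells (open points), for the 18 entries of the authors' deposited table, with a line joining the points of an entry. The filled Crabp1 points of clusters 0 and 7 lie near 80%, those of cluster 11 lie beside the open point, and the other Crabp1 points lie between 4.4% and 12.4%.

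Clusters 5, 9, 10 and 12 did not list Crabp1. Together they held 16.3% of cells, and by subtraction 27.8% of their cells had Crabp1 detected, at 0.88 times the mean level. That is a joint value for the 4 clusters. Of the 10 mesenchyme and fibroblast markers, 8 had an entry in any cluster, and clusters 5, 9 and 10 had 3, 4 and 6 higher. Cluster 12 was called neuron-like on 4 of the 9 neuron markers. The other neuron markers had no entry in any cluster. Detection of Crabp1 thus stood near 80% in clusters 0 and 7, at 27 to 28% in cluster 11 and in the 4 unlisted clusters as a whole, and at 4.4% to 12.4% in the other 8.

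Most of the lower entries rested on clusters 0 and 7 being in the reference. Those 2 clusters, in an alternative added after the values were seen, were taken out of the cells that each cluster is set against. The remaining 77.5% of cells had Crabp1 detected in 13.6% of cases, at 0.47 times the mean level. Without clusters 0 and 7, 2 of the 9 lower entries still reached the table's smallest size, cluster 4 at -0.505 and cluster 6 at -0.504 on the natural log scale, both near that bound of 0.5. Clusters 1, 2, 3, 8 and 14 lay between -0.32 and -0.20. Cluster 11 stood at 0.02 and cluster 13 at 0.06, and 27.3% of cluster 11 cells had Crabp1 detected against 13.3% of the other cells so defined. In cluster 13 detection was still lower, 7.8% against 13.7%.

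**Figure D3:**
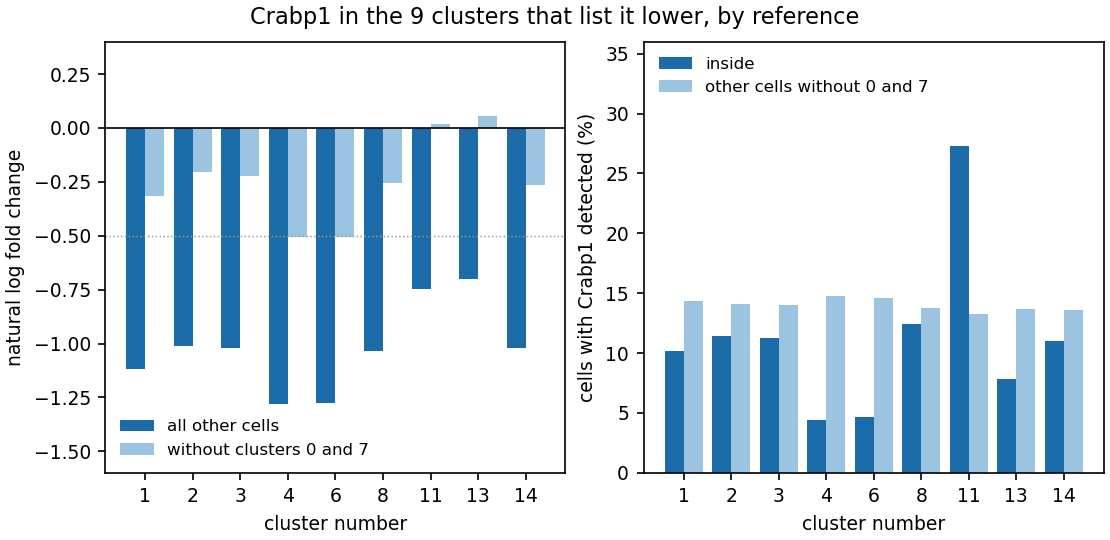
Crabp1 in the 9 clusters that list it lower (horizontal axes): natural log fold change against all other cells and with clusters 0 and 7 taken out (left, dotted line at -0.5), and percent of cells with Crabp1 detected inside and in the other cells without clusters 0 and 7 (right). With the 2 high clusters removed, the bars of clusters 4 and 6 end at the dotted line and those of clusters 11 and 13 lie slightly above 0.

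Crabp2 was high in 4 clusters, 3 of which listed Crabp1 lower. Crabp1 was listed lower in 9 of all 15 clusters. In cluster 11, 1 of the 3, Crabp1 was detected almost as often inside as outside, 27.3% against 28.7%. The highest Crabp2 value was in cluster 1, whose leading gene was the eye field factor Rax at 5.97-fold in the authors' deposited table. There, by the authors' deposited table, 63.7% of cells against 14.3% outside had Crabp2 detected and its mean was 3.10-fold higher. Cluster 4, led by the cyclin gene Ccnd2 at 2.75-fold, had 49% against 18.2% and a 1.87-fold difference in the authors' deposited table. Cluster 12, led by the neuronal tubulin gene Tubb3 at 17.5-fold, had 41% against 20.5% and a 1.69-fold difference in the authors' deposited table. Cluster 11 had 62.2% against 20.1% and a 1.68-fold difference in the authors' deposited table. The entries of clusters 11 and 12 lay just above the smallest size listed, at 0.52 each on the natural log scale. Genes listed higher made up 3.93% of the table for cluster 1, 1.92% for cluster 4, 0.835% for cluster 11 and 7.77% for cluster 12.

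Crabp2 was detected in 20.9% of all cells. Cluster 1 held 40.6% of the cells with Crabp2 detected, cluster 4 held 20.2%, cluster 11 held 5.53% and cluster 12 held 3.15%. The other 11 clusters, 74.6% of cells, held 30.5%, and 8.53% of their cells had it detected. On the level scale, cluster 1 stood at 2.42 times the mean, followed by cluster 4 at 1.74, cluster 12 at 1.67 and cluster 11 at 1.66. The last 3 lay within a ratio of 1.05 of each other, and no replicate spread is available to order them.

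Cluster 11 reached the detection of cluster 1 with a much smaller fold. The entries of cluster 11 as a set, Crabp1 and Crabp2 among them, had detection differences that stood above those of the table. Over its 10 higher entries the median detection difference was 45.7 percentage points, against 28.6 over all higher entries of the table. Over its 19 lower entries it was -3.9 points, against -21.5. It held 1.86% of cells, and its leading gene was the fibrillar collagen gene Col3a1 at 2.21-fold in the authors' deposited table. It listed 2 of the 8 mesenchyme markers with an entry as higher, Col1a2 and Col3a1, beside Crabp2. How many transcripts or how many cells each droplet of cluster 11 held was not tested.

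Cyp26a1 was high in clusters 3, 7 and 14. In the authors' deposited table, 37.9% of cluster 3 cells against 10% of others had it detected, with a 2.16-fold higher mean. Cluster 7 was alike in the authors' deposited table, with 40.5% against 10.8% and a 2.14-fold difference. Cluster 14 had 35.8% against 12.8% and a 1.74-fold difference in the authors' deposited table. By the authors' deposited table, cluster 3 was led by the keratin gene Krt8 (8.87-fold) and cluster 14 by the basement membrane collagen gene Col4a1 (21.98-fold). Cluster 14 had 6 of 7 epithelial markers higher, and 5 of the 6 endoderm markers with an entry, out of 9 on the list. It was left unnamed. Higher genes were 5.26% of the table for cluster 3 and 26.2% for cluster 14.

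Cyp26a1 was detected in 12.9% of all cells. Cluster 3 held 30.5% of the cells with Cyp26a1 detected and cluster 7 held 21.9%, while cluster 14, with 0.291% of all cells, held 0.808%. The 12 unlisted clusters held 46.8%, and 7.32% of their cells had it detected. The level was 1.98 times the mean of all cells in cluster 7, 1.93 in cluster 3 and 1.74 in cluster 14. Clusters 7 and 3 differed by a ratio of 1.03.

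**Figure D4:**
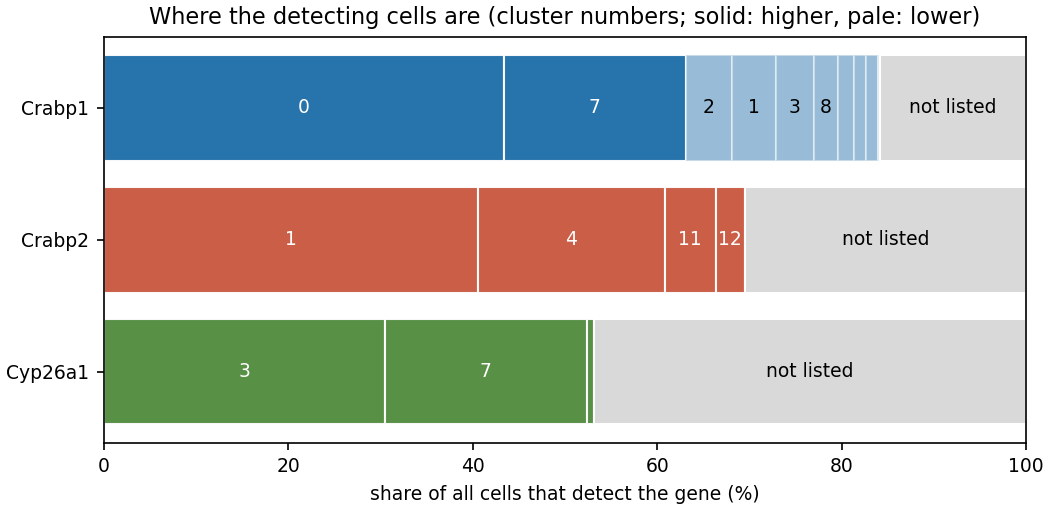
Share of all cells with a gene detected (horizontal axis, percent) that fell in each cluster, worked out from the authors' deposited table; numbers are clusters, solid pieces list the gene higher, pale pieces list it lower and grey is all unlisted clusters together. Clusters 0 and 7 hold 63.1% for Crabp1, clusters 1 and 4 hold most for Crabp2, and grey reaches 46.8% for Cyp26a1.

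Neither Crabp2 nor Cyp26a1 had an entry as lower, and the table's thresholds left little room for one. The smallest value of the larger detection share in any entry was 25.1%. A cluster without any Crabp2 would leave at most 24.7% of the other cells with it detected, and for Cyp26a1 at most 15.2%. A lower entry for either would thus need about 25.1% or more detection inside the cluster, together with a lower mean. A cluster without any Crabp1 would leave 28.7% or more of the other cells with it detected, so Crabp1 could be listed as lower anywhere. The larger number of Crabp1 entries therefore goes with its wider detection. In the table, 1% of genes were listed for 11 or more clusters, 9.36% for 4 or more and 16% for 3 or more.

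Where 2 of the genes had entries in the same cluster, the shares of cells set limits on how many cells could have both. In cluster 7, with Crabp1 detected in 81.2% of cells and Cyp26a1 in 40.5%, at least 21.7% of cells had both. At least 53.6% of the cluster 7 cells with Cyp26a1 detected therefore also had Crabp1 detected. In cluster 4, with Crabp2 in 49% of cells and Crabp1 in 4.4%, at most 8.98% of the cells with Crabp2 detected could have Crabp1 too. That limit was 16.0% in cluster 1 and 43.9% in cluster 11. In clusters 3 and 14, at most 29.8% and 30.7% of the cells with Cyp26a1 detected could have Crabp1. Crabp2 and Cyp26a1 shared 0 clusters. With 4 and 3 listings over 15 clusters, that count says little about overlap. These limits follow from the authors' deposited table and need no assumption about levels.

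The genes with the most similar pattern were found by the cosine of the log fold changes over the 15 clusters, with unlisted clusters set to 0. Clusters share most of their reference cells, so these values are descriptions. For Crabp1 they were Sfrp1, a secreted Wnt antagonist (0.78), Wls, which carries Wnt proteins to the cell surface (0.74), and Hmga2, a chromatin architectural protein (0.67). Sfrp1 was listed in the same direction as Crabp1 in 9 clusters, and Wls and Hmga2 in 6 each, with none opposite. In clusters where Crabp1 had no entry, the authors' deposited table listed Sfrp1 as 2.55-fold higher (cluster 5) and 2.48-fold lower (cluster 12). Hmga2 was 1.95-fold lower in cluster 12 by the authors' deposited table. In clusters 3 and 11, where Crabp1 was lower, Sfrp1 had no entry.

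For Crabp2 the nearest genes were the LIM-only factor Lmo1 (0.94), Nkx2-1, a homeobox factor of the ventral forebrain (0.94), and the forebrain zinc finger gene Fezf2 (0.90). Each was listed higher in clusters 1, 4 and 12, and none of these 3 in cluster 11. For Lmo1 the authors' deposited table gave 4.12-fold, 2.06-fold and 1.86-fold in clusters 1, 4 and 12. For Cyp26a1 they were the LIM homeobox gene Lhx1 (0.89), the carbonic anhydrase gene Car4 (0.84) and Cer1, whose secreted product blocks Nodal and BMP (0.79). Lhx1 was listed for clusters 3 and 7 alone, with 2.16-fold and 2.04-fold by the authors' deposited table, close to the 2.16-fold and 2.14-fold of Cyp26a1. Car4 shared all 3 clusters of Cyp26a1 and by the authors' deposited table also stood 2.48-fold higher in cluster 8. Cer1 shared clusters 3 and 7 but had no entry in cluster 14. By the authors' deposited table it was also 1.82-fold higher in cluster 0, where Cyp26a1 had no entry.

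Entries for the wider pathway fell in carriers, binding and breakdown genes and responsive genes. Of 78 genes on a list of retinoic acid uptake, synthesis, binding, breakdown, receptors, cofactors and target genes, 13 were listed, all 13 higher in at least 1 cluster and 3 lower in at least 1, Crabp1 and Fabp5 among them. Of the 37991 genes in the authors' p-value adjustment, 3.15% were listed for any cluster. The 13 include the 3 members, which were taken because they had entries, so the 2 shares are not like for like. None of the 14 synthesis genes, which include the retinaldehyde dehydrogenases Aldh1a1, Aldh1a2 and Aldh1a3, none of the 6 RAR and RXR receptor genes and none of the 8 cofactors had an entry. With 3.15% of all genes listed, no entry in groups of 14, 6 and 8 genes says little. A gene without an entry may be undetected or may vary below the thresholds. The median fold of the higher entries was 2.02 for the 13 genes and 2.10 for the whole table.

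All 3 binding genes were listed, but Crabp1 and Crabp2 are members and were taken because they had entries. Fabp5, a fatty acid carrier that can also bind retinoic acid, was lower in cluster 2, where the authors' deposited table gave 4.9% of cells against 41% and a 2.77-fold lower mean. By the authors' deposited table Fabp5 was also lower in cluster 14 (2.72-fold), and higher in cluster 10 (2.05-fold) and cluster 12 (1.77-fold). Cluster 12 thus listed Crabp2 and Fabp5 as higher, while cluster 2 listed Crabp1 and Fabp5 as lower.

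Carriers of the precursor retinol had 3 of 7 genes listed, beside 3.15% of all genes. The list was chosen with earlier results known, so this too is not like for like. In cluster 14, where Cyp26a1 was also higher, the blood carriers Rbp4 and Ttr stood at 6.91-fold and 12.3-fold by the authors' deposited table, and no other cluster listed them. Ttr is on the endoderm marker list too.

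Of the 37 genes known to answer to retinoic acid, 6 were listed, beside 3.15% of the 37991 genes in the authors' p-value adjustment. The list was chosen with earlier results of these data known, so the 2 shares are not like for like. Tbx1, a T-box factor that retinoic acid represses in the pharynx, was higher in the Crabp1 clusters 0 and 7, at 2.02-fold and 1.71-fold in the authors' deposited table. Fgf8, a patterning growth factor held back by retinoic acid in the body axis, was higher in the Crabp2 clusters 1 and 4, at 1.69-fold and 2.49-fold in the authors' deposited table. Isl1, a factor of second heart field cells, was listed by the authors' deposited table for cluster 2 at 2.42-fold and for cluster 9 at 1.80-fold. The authors' deposited table also gave the signalling regulator Rgs2 at 2.15-fold in cluster 6. No HOX gene of the list had an entry, which says little with 3.15% of all genes listed.

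**Figure D5:**
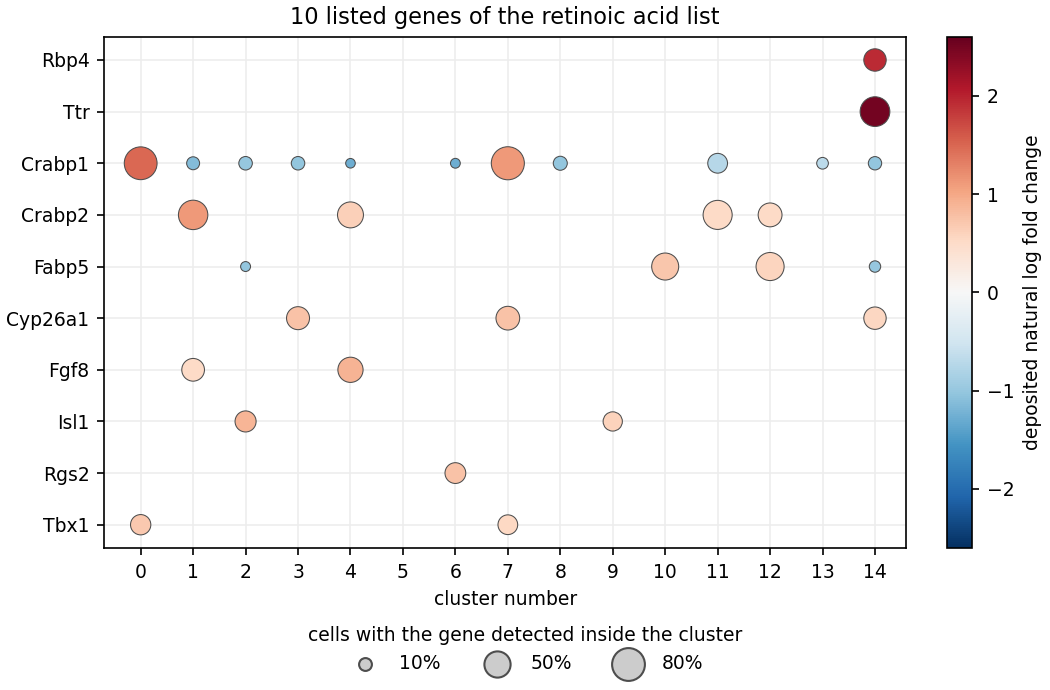
Of the listed genes of the retinoic acid list, 10 (vertical axis) by cluster (horizontal axis), from the authors' deposited table; colour gives the natural log fold change and point area grows with the percent of cells in the cluster with the gene detected. Crabp1 spans 11 clusters, and the other 9 genes have between 1 and 4 points each.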

How the data were processed

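The data were 1 table of marker genes for 15 clusters, made with Cell Ranger and Seurat on mm9, per the submitters' processing notes; these notes give no versions, cell filters or treatment of doublets, and depth and cell numbers are unknown. The header of the authors' deposited fold changes names a log without its base, and they were read as natural logs. For 4 genes listed in clusters that hold nearly all cells, the level left for the other cells was 0.67 to 1.56 times the mean read as natural logs, and 1.52 to 34.5 times read as base 2, while unlisted cells should lie near 1. The base 2 value of 1.52, that of Ifitm1, lay within the natural log range, so that gene does not tell the bases apart. The authors' deposited detection values are fractions of cells, printed as percent. The p-values in the authors' deposited table compare cells, which are not replicates, and were used in 1 alternative alone; the adjustment multiplied by 37991.

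Cluster sizes were solved by least squares over 407 genes listed for 2 or more clusters, since each entry of a gene must give the same share of all cells (residual SD 0.0228 percentage points). The share held, the level relative to the mean of all cells and the values with clusters removed from the reference follow from these sizes. A constant added before the log is included in a level, and the notes do not state it. On simulated data of 15 clusters and 1425 genes, sizes were recovered within 0.00699 percentage points and levels within 0.00342. Those data were built from the same relations, with no constant and no noise beyond rounding. They check the arithmetic and cannot show how accurate the levels are.

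The genes, lists and markers were chosen with earlier results of these data known. Markers without an entry in any cluster may be undetected or vary below the thresholds, and were not counted against a name. Clusters took the name of a cell type, with "-like", where at least 3 fixed markers were higher, after weighing other lists and leading genes: cluster 8 kept its name beside 4 epithelial markers, while clusters 5, 9 and 10 are given by their mesenchyme marker counts alone. Named genes were the members, listed genes of the retinoic acid list (some are not reported here), the 3 nearest genes of each member by cosine among genes listed for 2 or more clusters, and leading genes of clusters. Python 3.11.15, numpy 2.4.6, pandas 2.3.3 and matplotlib 3.10.9 were used.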

Additional observations from a re-analysis of the deposited data

How the results depend on the processing

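No paired analysis was possible because the table has no samples, and no replicate could be left out. The 2 higher entries of Crabp1 were unchanged under the 7 alternatives run, of which leaving out clusters 11 and 13 could not alter them. Its 9 lower entries stayed between 7 and 8 with a larger fold, with an adjusted p under 0.05 (which drops clusters 11 and 14), and with base 2. Without cluster 2 in the reference, which drops its own entry by design, the other 8 stayed. Leaving out clusters 11 and 13 (added after seeing the data) drops their entries by design and cannot alter the other 7. The lower entries fell to 2 with a detection difference of at least 25 percentage points. Without clusters 0 and 7 in the reference (also added), 2 were left by fold alone, clusters 4 and 6. Their detection shares were then too low for a listing. Crabp2 fell from 4 higher entries to 1 when an entry needed a fold of 0.75 in natural logs, to 1 at 1 and to 1 with base 2, and Cyp26a1 from 3 to 0 at 1. With base 2 the levels of Crabp1 in clusters 0, 7 and 6 were 2.19, 2.01 and 0.43 times the mean of all cells, that of Crabp2 in cluster 1 was 1.89, and those of Cyp26a1 in clusters 7 and 3 were 1.61 and 1.59. Had a constant of 1 been added before the log, the means without it could reach, in the same order, 3.69, 3.38, 0, 4.85, 5.85 and 5.60, so folds of these weakly detected genes may be understated. Of the 3 genes nearest to Cyp26a1, 1 was shared when likeness was the share of signed listings in common. The sizes from other sets of genes moved no detection share beyond its spread over entries. The list kept 13 genes with symbols as written and 11 at a fold of at least 0.75. Depth is unknown, so a gene without an entry cannot be called absent.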
